A study of Danio rerio with 18 samples.

Results

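The comparison described here is the interaction between the uhrf1 genotype and palbociclib in zebrafish larval liver, that is, the mutant effect under palbociclib minus the mutant effect in DMSO, on the log2 scale. It used all 18 of the 18 RNA-seq libraries of the series, and 340 of the 17048 genes tested (1.99%) were called for it at an adjusted p under 0.05 by edgeR's quasi-likelihood test. The 4 groups were palbociclib mutant (5 libraries), palbociclib control (4), DMSO mutant (5) and DMSO control (4). Mutant larvae carried uhrf1-hi272 on both copies and controls were labelled Control, or WT in the design text. Both genotypes came from crosses between uhrf1-hi272 heterozygotes of strain ABNYU, and both carried Tg(fabp10a:CAAX-EGFP), a membrane EGFP driven by a promoter active in hepatocytes. Palbociclib, labelled CDKI or PD, was given to whole larvae at 20 µM in 0.5% DMSO, the other groups receiving 0.5% DMSO, with treatment starting at 48 hours after fertilization and livers collected at 120 hours. Each library was a pool of dissected livers sorted by the genotype of the carcass, so the mutation and the drug acted in the whole animal. The labels do not say whether pools came from separate clutches, and the p-values therefore cover the spread among these pools only, part of which may be technical.

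UHRF1 binds newly copied DNA that is methylated on 1 strand and brings in the maintenance methyltransferase DNMT1, so that its loss leaves dividing cells with less DNA methylation. Palbociclib inhibits the cyclin-dependent kinases CDK4 and CDK6, which phosphorylate the retinoblastoma protein and so let cells enter S phase. Hepatocytes secrete most plasma proteins and carry out fatty acid oxidation, sterol synthesis, glycogen handling and detoxification. Gene roles given below are those known from mammals unless a fish is named, and symbols are spelled as in the naming table, with part of the gene identifier added where several zebrafish genes share 1 symbol.

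Libraries held 2467926 to 5199301 counts, with 2863560 to 4056715 in palbociclib mutants, 3400255 to 4764175 in palbociclib controls, 2467926 to 3618445 in DMSO mutants and 4141600 to 5199301 in DMSO controls. Levels are given as CPM, counts scaled to library size with TMM factors. UHRF1 itself had 32.0 to 50.1 CPM in palbociclib mutants and 37.8 to 55.9 CPM in palbociclib controls, against 33.7 to 53.9 CPM in DMSO mutants and 29.1 to 46.9 CPM in DMSO controls. These ranges overlapped and the interaction was -0.53 (adjusted p = 0.25). Counts over the whole gene do not check the hi272 labels, so libraries are named by their labels.

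Across the genome the mutant effect was smaller under palbociclib. In DMSO, 1145 genes rose and 1772 fell in mutants (17.1% of genes tested in either direction), and under palbociclib 108 rose and 71 fell in mutants (1.05%). The direction in DMSO depended on the scaling, since with scaling by library size alone 4681 genes rose and 1027 fell there, and under palbociclib 192 rose and 108 fell. Palbociclib changed 973 genes in controls (5.71%), of which 738 fell, and 92 genes in mutants (0.54%), of which 85 fell and 7 rose (0.0411%). With library size alone 1079 genes rose and 393 fell with palbociclib in controls, and with the muscle share of each library as a covariate palbociclib changed 49 genes in controls and 366 in mutants. In the muscle covariate fit 1162 mutant effects were called in DMSO and 445 under palbociclib. Of the interactions called, 297 were positive (1.74% of genes tested) and 43 were negative (0.252%). All 297 positive genes were lower in mutants than in controls in DMSO, 295 of them past the threshold, and their mutant effect was less negative or positive under palbociclib. All 43 negative genes were higher in mutants in DMSO, 41 past the threshold. The 4 pairwise contrasts are parts of the interaction and describe it without being separate evidence. The median mutant effect over the positive genes was -0.24 under palbociclib and -1.45 in DMSO, and over the negative genes it was -0.02 and 1.41 (log2). Over all genes tested, with no library in common, the mutant effects in palbociclib and in DMSO had a Pearson r of 0.601 and a Spearman rho of 0.337 across genes, which are not independent replicates. The count of 340 moved to 842 without DMSO control replicate 2, 172 without DMSO control replicate 3 and 168 without DMSO control replicate 4. It was 538, 188 and 218 without palbociclib control replicates 2, 4 and 5, and 219 and 218 without DMSO mutant replicates 3 and 4. With scaling by library size alone, 248 interactions were positive and 143 negative, and the median interaction of all genes was -0.27, against 0.00 with TMM scaling.

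**Figure D1:**
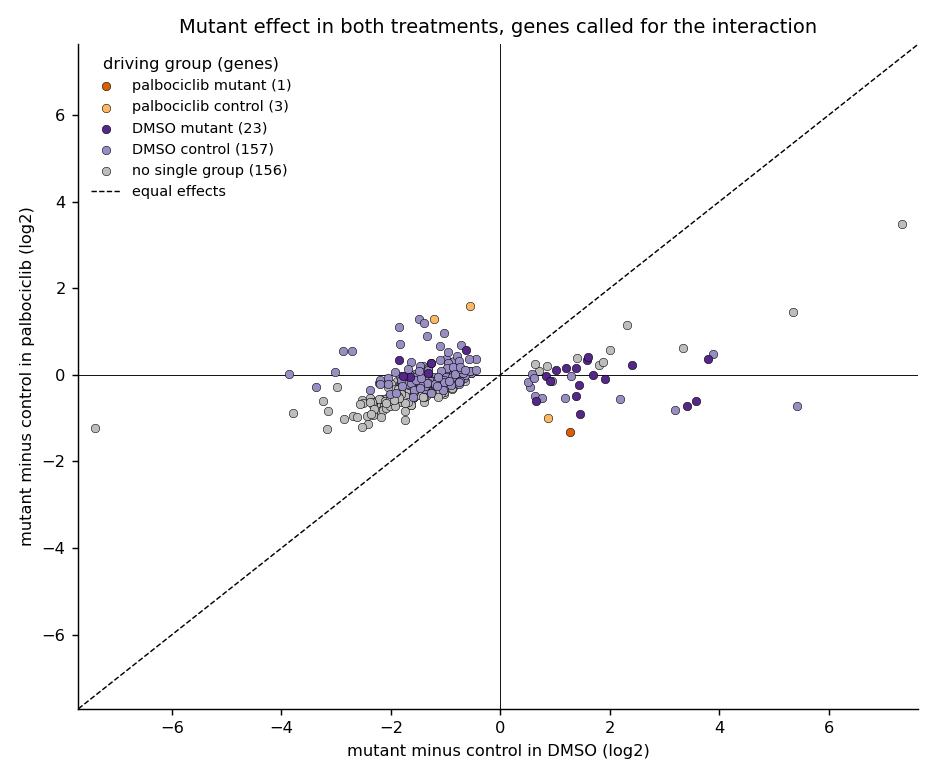
Mutant minus control in palbociclib (vertical axis, log2) against mutant minus control in DMSO (horizontal axis, log2) for the 340 genes called, coloured by driving group, with the dashed line at equal effects. The 297 positive genes lie above the line on the left, the 43 negative genes lie below it on the right, and most points are close to 0 on the vertical axis.

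Which group drove each interaction was read from the 4 fitted log2 means. A group was named the driver when the other 3 means lay within a range of at most 0.5 of the absolute interaction. On the log2 scale a group near the floor can be named even where another group differs more in CPM. DMSO control was the driver for 157 genes, 144 of them positive and 13 negative. With library size alone this class held 74 positive and 74 negative genes, and with the muscle covariate 18 positive and 34 negative genes. DMSO mutant was the driver for 23 genes, 6 positive and 17 negative. Palbociclib control was the driver for 3 genes and palbociclib mutant for 1. The other 156 genes, 145 positive and 11 negative, had no single driver, and in 143 and 11 of these the DMSO mutant and the DMSO control held the ends of the range. Among the positive genes the DMSO control had the highest mean in all 297 and the DMSO mutant the lowest in 264. The 4 DMSO control libraries all lay above the other 14 libraries in 161 of them, against 2.48% of all genes tested. Palbociclib changed 265 of the positive genes in controls and 5 in mutants, with median effects of 0.31 in mutants and -0.86 in controls. The palbociclib effect in controls made up a median of 70.9% of a positive interaction. Among the negative genes the DMSO mutant had the highest mean in 38 and the DMSO control the lowest in 39, and all 5 DMSO mutant libraries lay above the rest in 16, against 0.645% of all genes tested. Positive and negative genes were called from these same libraries. An excess of separated groups over all genes tested comes with that selection and is no separate evidence. The median palbociclib effect on the negative genes was -0.86 in mutants and 0.61 in controls, and 43% of the interaction came from controls. By the sign of the estimates alone, mutant effects were opposite under palbociclib and in DMSO in 63 positive and 22 negative genes. Many of these estimates were near 0 under palbociclib. The mutant effect there passed the threshold in 19 positive and 2 negative genes. The 2 negative genes, nfkb2 and cd83, were higher in mutants in both treatments.

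The smallest adjusted p belonged to PKLR, the pyruvate kinase of liver and red cells. PKLR had 487, 557, 462, 565 and 498 CPM in palbociclib mutants, against 587, 754, 727 and 621 CPM in palbociclib controls. In DMSO it had 405, 367, 376, 378 and 405 CPM in mutants, against 1600, 1270, 1520 and 1430 CPM in controls. The 4 groups did not overlap, and the DMSO controls stood far above the rest. The PKLR mutant effect was -0.39 ± 0.082 under palbociclib and -1.91 ± 0.083 in DMSO (log2 ± SE), an interaction of 1.52 ± 0.117 (edgeR adjusted p = 3.57e-12). PKLR fell by 1.11 with palbociclib in controls and rose by 0.41 in mutants, so no single group drove it.

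ces3, a carboxylesterase that hydrolyses lipid esters, had 44.2, 43.5, 41.0, 38.1 and 58.0 CPM in palbociclib mutants, against 63.6, 78.6, 50.8 and 27.3 CPM in palbociclib controls. In DMSO ces3 had 26.5, 22.1, 21.6, 18.6 and 19.6 CPM in mutants, against 234, 166, 248 and 252 CPM in controls. The DMSO controls lay above every other library, the DMSO mutants below, and the palbociclib groups overlapped. The interaction of ces3 was 3.08 ± 0.327 (adjusted p = 7.94e-05), driven by the DMSO control. glud1a, a mitochondrial glutamate dehydrogenase, had 82.0 to 97.4 CPM in palbociclib mutants and 75.6 to 113 CPM in palbociclib controls, against 67.2 to 87.4 CPM in DMSO mutants and 175 to 247 CPM in DMSO controls. The 3 other groups overlapped and the DMSO controls stood apart, giving 1.25 ± 0.167 (adjusted p = 9.84e-06). nr5a5, a nuclear receptor of the NR5A group, had the same driver. It had 23.5 to 37.1 CPM in palbociclib mutants and 18.1 to 29.7 CPM in palbociclib controls, against 24.8 to 37.2 CPM in DMSO mutants and 74.5 to 89.8 CPM in DMSO controls (interaction 1.61 ± 0.226, adjusted p = 2.24e-05).

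The glutathione transferase gstr averaged 152 and 177 CPM in palbociclib mutants and controls, against 118 and 288 CPM in DMSO mutants and controls, with no single driver (1.07 ± 0.155, adjusted p = 4.03e-05). FAT3_087709, an atypical cadherin, averaged 19.7 and 22.5 CPM in palbociclib mutants and controls, against 15.5 and 72.1 CPM in DMSO mutants and controls, and was driven by the DMSO control (2.03 ± 0.291, adjusted p = 5.22e-05). ANXA4, an annexin found in bile duct cells and listed here as a biliary marker, averaged 203 and 164 CPM, against 219 and 383 CPM, in that order. ANXA4 fell by 1.22 with palbociclib in controls and its mutant effect was 0.31 under palbociclib (adjusted p = 0.279) and -0.81 in DMSO (adjusted p = 1.69e-06), an interaction of 1.12 ± 0.161. It was the 1 biliary marker called of 28 tested (3.57%, against 1.99% of all genes tested), and the list had a median interaction of -0.08. Of the 28, 8 rose and 1 fell in DMSO mutants, against 6.72% and 10.4% of all genes tested. Summed, the biliary markers took 0.259 to 0.31% of counts in palbociclib mutants and 0.189 to 0.244% in palbociclib controls. In DMSO they took 0.319 to 0.352% in mutants and 0.194 to 0.227% in controls, so mutants lay above controls in both treatments.

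**Figure D2:**
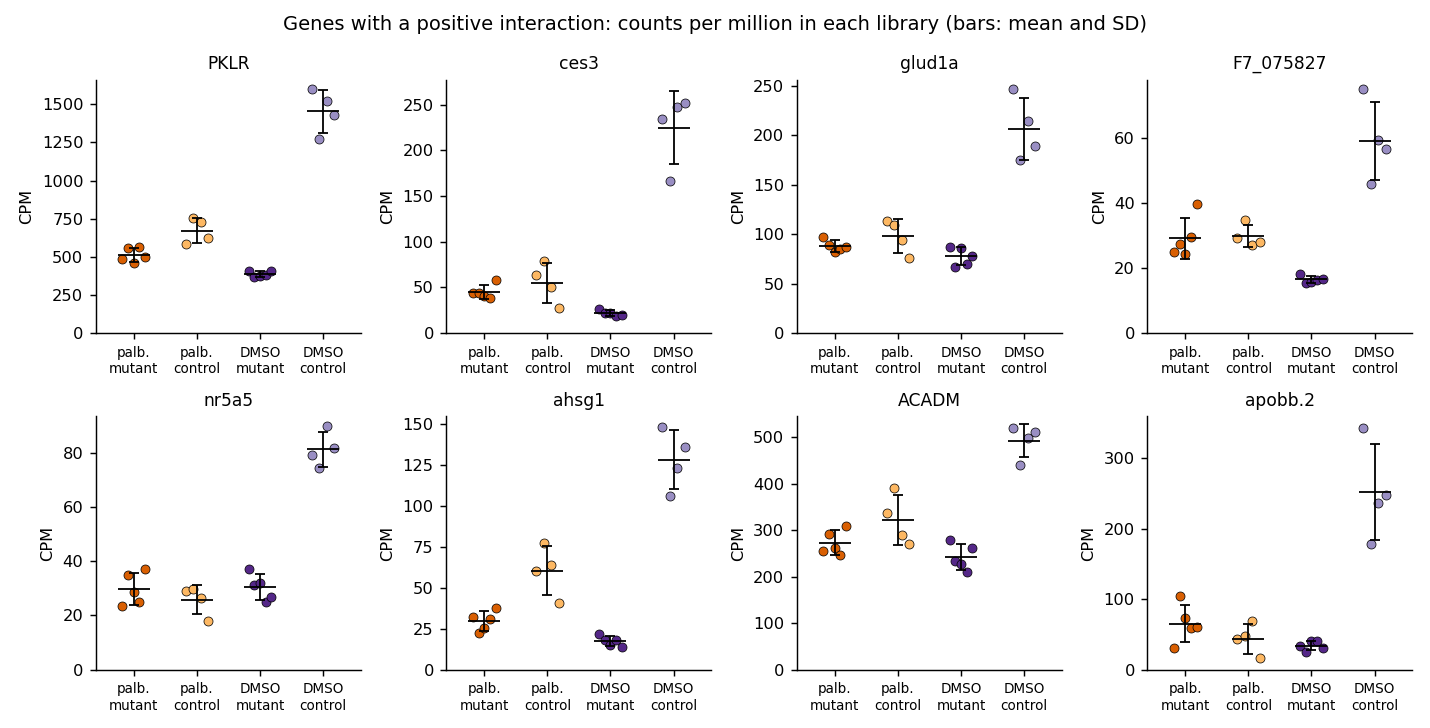
CPM in each library (points) with group mean and SD (bars) for 8 genes with a positive interaction, palbociclib groups on the left and DMSO groups on the right of each panel. In every panel the 4 DMSO control points lie above the other 14, with PKLR at 1270 to 1600 CPM in DMSO controls and 367 to 405 CPM in DMSO mutants.

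Secreted hepatocyte proteins were the most positive of the larger lists after complement. Of 53 listed genes tested, 12 had a positive and 1 a negative interaction (1.74% and 0.252% of all genes tested). The list's median interaction was 1.27, against 0.00 over all genes tested. Scaling the libraries to this list set its median near 0 by construction (0.09) and moved the median of all genes to -1.27, and on that scale the medians of complement (0.20), sterol synthesis (-0.13), hepatocyte enzymes (-0.44) and fatty acid oxidation (-0.56) lay above that of all genes while the last 3 turned negative. The list's median mutant effect was -0.18 under palbociclib and -1.45 in DMSO, and 9 of the 13 genes were driven by the DMSO control, with no single driver for the other 4. ahsg1, a fetuin that binds calcium phosphate, had 32.1, 22.3, 25.6, 30.8 and 38 CPM in palbociclib mutants, against 60.0, 77.4, 63.8 and 41.0 CPM in palbociclib controls. In DMSO ahsg1 had 21.7, 18, 15.4, 18.4 and 13.9 CPM in mutants, against 148, 106, 123 and 136 CPM in controls. Its 4 groups did not overlap, and mutants were lower than controls in both treatments (-1.02 under palbociclib, -2.86 in DMSO, interaction 1.84 ± 0.228, adjusted p = 5.32e-06). F7_075827, a copy of coagulation factor VII, which starts clotting with tissue factor, had 24.2 to 39.6 CPM in palbociclib mutants and 27 to 34.7 CPM in palbociclib controls, against 15.4 to 18.3 CPM in DMSO mutants and 45.9 to 74.9 CPM in DMSO controls. The palbociclib groups overlapped and lay between the DMSO groups. F7_075827 rose by 0.82 with palbociclib in mutants (adjusted p = 0.00722) and fell by 1.00 in controls, an interaction of 1.81 ± 0.235 (adjusted p = 7.8e-06). F10, coagulation factor X, averaged 204 and 165 CPM in palbociclib mutants and controls, against 154 and 275 CPM in DMSO mutants and controls (1.15 ± 0.213, adjusted p = 0.006). The negative member was hp, haptoglobin, which binds free haemoglobin and is named because it was the exception. hp averaged 3.85 and 2.80 CPM in palbociclib mutants and controls, against 4.09 and 0.257 CPM in DMSO mutants and controls (-3.38 ± 0.955, adjusted p = 0.0495). At 0.257 CPM the DMSO controls were near the floor, so the size of this interaction is uncertain, and its call was close to the threshold.

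fabp10a, the liver fatty acid binding protein of zebrafish and the promoter of the EGFP transgene, marked all libraries as liver. It had 2260, 2780, 2050, 2520 and 2630 CPM in palbociclib mutants, against 3080, 4160, 2100 and 1750 CPM in palbociclib controls. In DMSO fabp10a had 1930, 1740, 1250, 1400 and 1490 CPM in mutants, against 5270, 3210, 5330 and 5420 CPM in controls. The palbociclib groups overlapped, and the interaction was 1.44 ± 0.328 (adjusted p = 0.0384). That call was lost on leaving out any 1 of 14 of the 18 libraries, all but DMSO control replicate 2, DMSO mutant replicate 1, palbociclib control replicate 2 and palbociclib mutant replicate 3.

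apobb.2, an apolipoprotein B gene whose product carries lipid out of the liver, had the largest positive interaction among named genes that reached a group mean of 5 CPM. It had 30.8, 104, 73.2, 59.7 and 60.1 CPM in palbociclib mutants, against 43.0, 48.0, 68.5 and 16.2 CPM in palbociclib controls. In DMSO apobb.2 had 33.0, 25.6, 40.6, 40.4 and 30.4 CPM in mutants, against 343, 179, 237 and 248 CPM in controls. The DMSO controls lay above the other groups, which overlapped, and the interaction was 3.44 ± 0.521 (adjusted p = 0.00333). cbln9, a cerebellin-like gene, averaged 5.98 and 5.73 CPM in palbociclib mutants and controls, against 2.88 and 23.8 CPM in DMSO mutants and controls (3.09 ± 0.596, adjusted p = 0.0046). Its DMSO control libraries spread between 9.47 and 38.4 CPM.

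Complement genes had the highest list median, 1.3, with 4 of 23 positive and none negative (1.74% and 0.252% of all genes tested). The 4 called included c3b.1, a copy of the central component C3, at 369 and 551 CPM in palbociclib mutants and controls, against 271 and 1090 CPM in DMSO mutants and controls (1.43 ± 0.298, adjusted p = 0.0243). MASP1 and MASP2, serine proteases of the lectin pathway, had interactions of 1.22 ± 0.326 and 1.70 ± 0.373 (adjusted p = 0.0367 and 0.0278). Each of these calls could be lost by leaving out 1 library, and c3b.1 was lost without any 1 of 5 libraries, MASP2 of 8 and MASP1 of 9, DMSO control replicates 3 and 4 and palbociclib control replicate 4 being among them for all 3. Hepatocyte enzymes had 8 positive and 0 negative interactions among 51 genes (1.74% and 0.252% of all genes tested), with a median of 0.72. After PKLR and ces3 the next smallest adjusted p was that of fmo5, a flavin monooxygenase, at 27.1 and 32.8 CPM in palbociclib mutants and controls, against 22.3 and 62.1 CPM in DMSO mutants and controls (1.19 ± 0.241, adjusted p = 0.0037). cyp2ad2, a cytochrome P450, averaged 65.2 and 116 CPM, against 42.3 and 375 CPM, in that order (2.32 ± 0.447, adjusted p = 0.015). Under palbociclib 6 of the 51 enzymes fell in mutants (0.416% of all genes tested fell there), against 36 in DMSO (10.4%).

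Of 44 liver transcription factors and receptors, 3 had a positive interaction (6.82%, against 1.74% of all genes tested). ESRRA, an orphan receptor that drives mitochondrial genes, averaged 25.7 and 33.1 CPM in palbociclib mutants and controls, against 17.6 and 48.1 CPM in DMSO mutants and controls (1.08 ± 0.244, adjusted p = 0.00946). NR5A2, a regulator of bile acid and lipid genes, averaged 28.6 and 33.6 CPM, against 29.2 and 80.2 CPM, in that order (1.23 ± 0.312, adjusted p = 0.0405). PROX1, a homeobox factor of liver and lymphatic fate, averaged 45.1 and 55.7 CPM, against 40.7 and 112 CPM (1.16 ± 0.297, adjusted p = 0.0495). The NR5A2 call was lost without any 1 of 14 libraries, all but DMSO control replicate 2, DMSO mutant replicate 1, palbociclib control replicate 2 and palbociclib mutant replicate 4. The PROX1 call was lost without any 1 of 15, all but DMSO control replicates 1 and 2 and palbociclib mutant replicate 4.

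Fatty acid oxidation had the highest share of called genes among the lists. Of its 32 genes, 14 had a positive interaction and none a negative one (1.74% and 0.252% of all genes tested). A positive sign was seen in 31 of the 32, and the median interaction was 0.60. The median mutant effect was -0.32 under palbociclib and -1.02 in DMSO, and 28 of the 32 genes fell in DMSO mutants (10.4% of all genes tested fell there), against 2 under palbociclib (0.416%). Of the 14 genes, 3 were driven by the DMSO control and 11 had no single driver. SLC25A20, the carrier that brings acylcarnitines into mitochondria, averaged 137 and 166 CPM in palbociclib mutants and controls, against 110 and 256 CPM in DMSO mutants and controls (0.94 ± 0.162, adjusted p = 0.000688). ACADM, the medium-chain acyl-CoA dehydrogenase, had 255, 291, 262, 247 and 310 CPM in palbociclib mutants, against 338, 391, 289 and 271 CPM in palbociclib controls. In DMSO ACADM had 279, 234, 227, 211 and 262 CPM in mutants, against 520, 440, 499 and 512 CPM in controls. The DMSO controls lay above the other 3 groups, which overlapped, giving 0.79 ± 0.139 (adjusted p = 0.000765). ACAA1, a thiolase of peroxisomes, averaged 63.1 and 82.1 CPM in palbociclib mutants and controls, against 47.8 and 130 CPM in DMSO mutants and controls (1.07 ± 0.198, adjusted p = 0.00155).

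Sterol synthesis and uptake showed a related order of means without a call. None of its 33 genes passed edgeR's threshold for the interaction (1.99% of all genes tested), although 20 had an unadjusted p under 0.05. DESeq2 called 8 positive and limma-voom 1 positive. The median interaction of the list was 1.09. In DMSO 25 of the 33 genes fell in mutants (10.4% of all genes tested fell there) and 2 rose (6.72%). Under palbociclib 0 of 33 passed for the mutant effect, against 1.05% of all genes tested in either direction. Palbociclib lowered 21 of the 33 in controls (4.33% of all genes tested fell there) and 0 in mutants (0.499%). SQLE_079946, the squalene epoxidase, had 19.6, 26.5, 27.3, 16.9 and 28.7 CPM in palbociclib mutants, against 79.7, 88.7, 25.4 and 36.7 CPM in palbociclib controls. In DMSO SQLE_079946 had 31.0, 31.7, 22.2, 27 and 16.2 CPM in mutants, against 169, 120, 338 and 305 CPM in controls. The DMSO controls were highest but spread widely, and the interaction was 1.91 ± 0.557 (adjusted p = 0.106). In fatty acid synthesis and lipid droplets 2 of 25 genes had a positive interaction (8.0%, against 1.74% of all genes tested). ACACB, the acetyl-CoA carboxylase that restrains mitochondrial fatty acid entry, had 0.83 ± 0.172 (adjusted p = 0.00602). PNPLA3, a lipid droplet acylhydrolase, had 0.91 ± 0.249 and was the last gene inside the threshold (adjusted p = 0.05 after rounding), just after hp (0.0495) and LEF1 (0.0498), while pgm1 and COL12A1_019601 (both 0.0508) were just outside. The PNPLA3 call was lost without any 1 of 13 libraries, all but DMSO control replicates 1 and 2, DMSO mutant replicate 2, palbociclib control replicate 2 and palbociclib mutant replicate 3, and the interaction was 0.41 (adjusted p = 0.531) with the muscle covariate. FASN, fatty acid synthase, had an interaction of 0.17 (adjusted p = 0.757), with the mutant lower under palbociclib (-0.55, adjusted p = 0.0212) and in DMSO (-0.72, adjusted p = 6.52e-05).

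**Figure D3:**
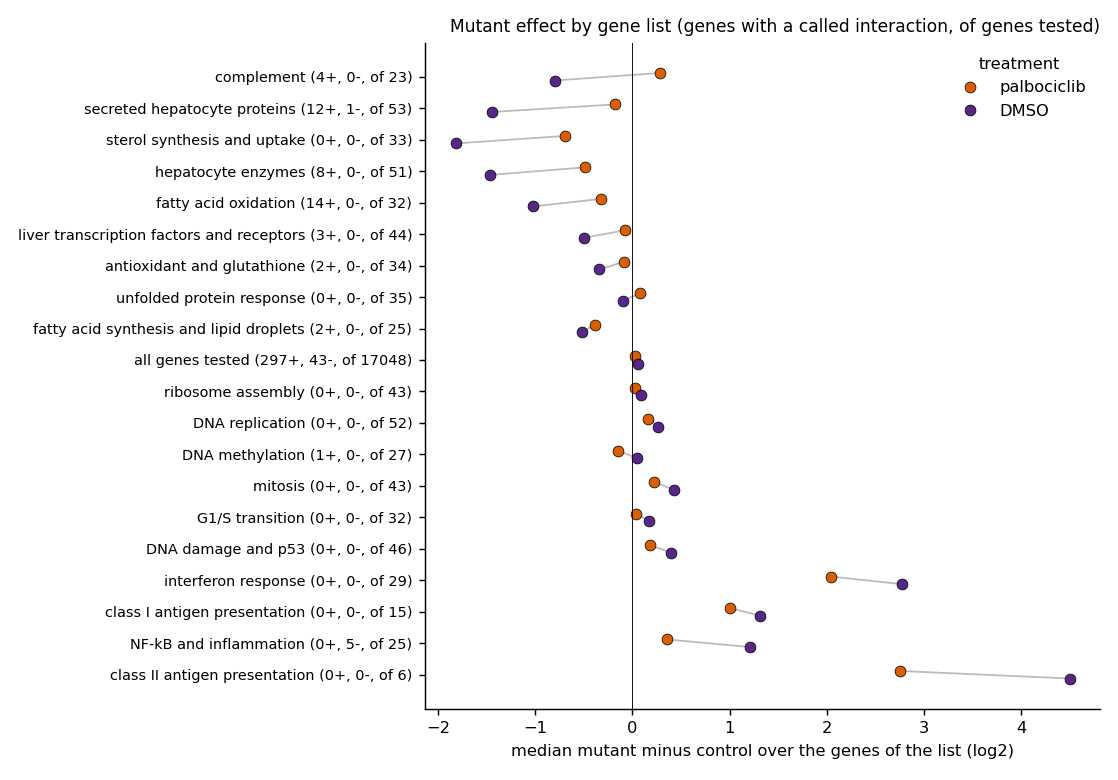
Median mutant minus control effect (log2) over the genes of each pathway list, in palbociclib (orange) and DMSO (purple), ordered by the median interaction, with the number of genes called positive and negative beside each name. The complement, secreted protein, sterol, enzyme and fatty acid oxidation medians lie nearer 0 or above it under palbociclib, and the interferon list lies at 2.04 under palbociclib and 2.77 in DMSO.

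Among negative interactions the smallest adjusted p of a gene with a named product was that of FN1_019815, a fibronectin gene of the extracellular matrix. It had 57.2, 75.8, 76.3, 68.3 and 68.8 CPM in palbociclib mutants, against 60.8, 51.2, 60.8 and 75.1 CPM in palbociclib controls. In DMSO FN1_019815 had 103, 111, 123, 139 and 127 CPM in mutants, against 55.7, 60.7, 49.3 and 44.4 CPM in controls. The DMSO mutants lay above every other library, and the interaction of -1.04 ± 0.177 (adjusted p = 0.000512) was driven by them. The other fibronectin gene, FN1_006526, ran the opposite way, with 1230 and 1480 CPM in palbociclib mutants and controls, against 689 and 2850 CPM in DMSO mutants and controls (1.78 ± 0.409, adjusted p = 0.0393). The FN1_006526 call was lost without any 1 of 13 libraries, all but DMSO control replicate 2, DMSO mutant replicate 1, palbociclib control replicates 2 and 5 and palbociclib mutant replicate 4.

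SERPINB1_055416, an inhibitor of neutrophil proteases, had 31.2 to 52.1 CPM in palbociclib mutants and 27.7 to 38.3 CPM in palbociclib controls, against 61.0 to 111 CPM in DMSO mutants and 20.0 to 34.5 CPM in DMSO controls (-1.24 ± 0.234, adjusted p = 0.00179). cldn15la, a claudin of tight junctions, had 36.7 to 49.2 CPM and 30.0 to 39.1 CPM in palbociclib mutants and controls, against 66.2 to 101 CPM and 28.1 to 32.5 CPM in DMSO mutants and controls (-1.04 ± 0.199, adjusted p = 0.00203). PLAC8_043729, a small cysteine-rich protein, had 48.2 to 65.3 CPM and 50.8 to 66.2 CPM, against 72.0 to 87.4 CPM and 41.0 to 50.5 CPM, in that order (-0.85 ± 0.174, adjusted p = 0.00425). In all 3 genes the DMSO mutants lay above every other library and fell with palbociclib, by 1.04, 0.89 and 0.49 on the log2 scale, while the change in controls did not pass (0.20, 0.15 and 0.36). PRDM1, a transcriptional repressor of immune and epithelial cells, averaged 6.05 and 8.57 CPM in palbociclib mutants and controls, against 11.6 and 4.45 CPM in DMSO mutants and controls (-1.87 ± 0.421, adjusted p = 0.00959). hs3st1l2, a heparan sulfate sulfotransferase, averaged 6.70 and 4.38 CPM, against 15.9 and 1.53 CPM (-2.73 ± 0.568, adjusted p = 0.00463).

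Of 25 tested genes of NF-kB and inflammation, 5 had a negative and 0 a positive interaction (0.252% and 1.74% of all genes tested). A negative sign was seen in 22 of the 25, and the median was -0.78. The 25 were those of 45 listed genes that passed the filter on low counts. A gene can pass it through the 1 group where it is high, so these signs and this median may in part follow from the filter. The median mutant effect of the list was 0.36 under palbociclib and 1.21 in DMSO, and 16 genes rose in DMSO mutants (6.72% of all genes tested rose there), against 3 under palbociclib (0.634%). nfkb2, the subunit of the noncanonical NF-kB pathway, had 29.6, 57.7, 49.3, 36.1 and 55.9 CPM in palbociclib mutants, against 16.3, 21.8, 21.3 and 23.2 CPM in palbociclib controls. In DMSO nfkb2 had 98.1, 86.1, 55.2, 64.0 and 62.4 CPM in mutants, against 14.3, 17, 13.7 and 14.0 CPM in controls. Mutants lay above controls in both treatments, by 1.15 under palbociclib (adjusted p = 0.000299) and 2.31 in DMSO, and the interaction was -1.16 ± 0.264 (adjusted p = 0.0115). ACOD1, which makes itaconate in activated macrophages, had 1.14, 3.35, 2.85, 3.32 and 1.81 CPM in palbociclib mutants, against 0.645, 3.16, 2.62 and 1.35 CPM in palbociclib controls. In DMSO ACOD1 had 11.8, 11.6, 8.66, 10.2 and 11.2 CPM in mutants, against 1.17, 0.486, 0.498 and 0.779 CPM in controls. The palbociclib groups overlapped and the DMSO mutants lay above all others, giving -3.44 ± 0.689 (adjusted p = 0.00333).

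The matrix proteases MMP9 and mmp13a were also highest in DMSO mutants. MMP9 averaged 4.03 and 4.30 CPM in palbociclib mutants and controls, against 16.3 and 4.27 CPM in DMSO mutants and controls (-2.02 ± 0.464, adjusted p = 0.0113), a call lost without palbociclib control replicate 4. mmp13a averaged 1.88 and 2.97 CPM, against 9.99 and 0.801 CPM (-4.18 ± 0.857, adjusted p = 0.00493). cd83, a marker of activated antigen-presenting cells, had 8.89, 12.8, 8.26, 11.6 and 13.9 CPM in palbociclib mutants, against 2.36, 0.947, 0.403 and 0.00 CPM in palbociclib controls. In DMSO cd83 had 33.3, 33.7, 22.7, 17.6 and 18.5 CPM in mutants, and 2 counts in all in the 4 controls. Mutants were far above controls in both treatments, at 205 times in DMSO by summed counts (exact 95% interval 56.4 to 1700, counting error only). The fitted interaction of cd83 was -3.86 ± 0.963 (adjusted p = 0.0244), was lost without DMSO control replicates 1 or 4 or palbociclib control replicate 1, and depends on the prior count. EPX_019521, a leukocyte peroxidase, averaged 10.8 and 8.87 CPM in palbociclib mutants and controls, against 18.2 and 4.95 CPM in DMSO mutants and controls (-1.59 ± 0.401, adjusted p = 0.0243), and its call was lost without any 1 of 5 libraries, DMSO control replicates 1 and 3, DMSO mutant replicates 4 and 5 and palbociclib control replicate 5. Markers of macrophages and leukocytes, 30 genes, made up 0.0132 to 0.0164% of counts in palbociclib mutants and 0.0101 to 0.0142% in palbociclib controls, against 0.0173 to 0.0241% in DMSO mutants and 0.00614 to 0.00997% in DMSO controls, where 4 of the 30 had no count. Neutrophil markers, 10 genes with MMP9 among them, made up 0.00631 to 0.00862% of counts in palbociclib mutants and 0.00472 to 0.0079% in palbociclib controls. In DMSO they made up 0.00967 to 0.011% in mutants and 0.00428 to 0.00587% in controls. The part of these shares in the inflammatory values was not tested. In bulk tissue, fewer cells of a type and less RNA per cell cannot be told apart.

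**Figure D4:**
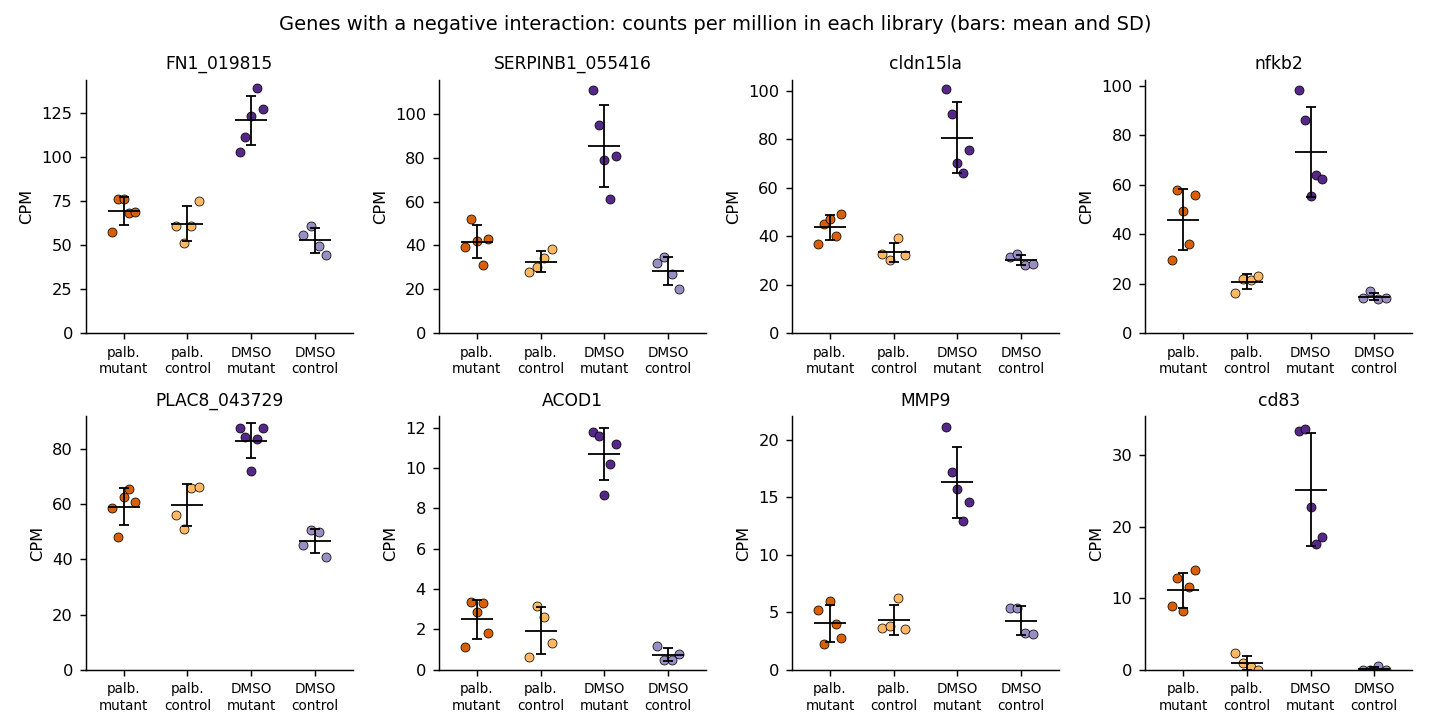
CPM in each library (points) with group mean and SD (bars) for 8 genes with a negative interaction, palbociclib groups on the left and DMSO groups on the right. The DMSO mutants are highest in each panel, by group mean. In every panel but PLAC8_043729 and MMP9 the palbociclib mutant mean lies between that of DMSO mutants and those of both control groups.

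Interferon response genes, which encode antiviral proteins, had a positive median mutant effect in both treatments. None of the 29 tested genes was called for the interaction by edgeR, DESeq2 or limma-voom, and 4 had an unadjusted p under 0.05 in edgeR. EdgeR called 1.99% of all genes tested, a share at which a list of 29 can have 0 calls. The median mutant effect was 2.04 under palbociclib and 2.77 in DMSO, with 8 genes rising in mutants under palbociclib (0.634% of all genes tested rose there) and 20 in DMSO (6.72%). isg15, an interferon-induced modifier related to ubiquitin, had 83.7, 223, 162, 175 and 164 CPM in palbociclib mutants, against 0.860, 0.316, 0.00 and 1.62 CPM in palbociclib controls. In DMSO isg15 had 578, 444, 163, 187 and 258 CPM in mutants, against 0.936, 1.46, 1.99 and 0.260 CPM in controls. Mutants lay far above controls in both treatments, and the interaction of -0.24 ± 1.60 (adjusted p = 0.972) had an error that does not limit it to a small value. Class I and class II antigen presentation had 0 of 15 and 0 of 6 genes called by edgeR, DESeq2 or limma-voom, with 3 and 1 at an unadjusted p under 0.05. Lists this small can likewise have 0 calls at the share of all genes tested. Their median interactions were -0.5 and -1.67, and 10 of 15 and 6 of 6 genes had a negative sign. Their median mutant effects were 1.0 and 2.75 under palbociclib, against 1.31 and 4.5 in DMSO. Genes tested in these lists were those of 36 interferon, 24 class I and 8 class II genes that passed the filter on low counts. The limit given for the NF-kB list holds for their signs and medians too.

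Cell cycle genes showed no called interaction, against 1.99% of all genes tested. At that share, lists of this size can have 0 calls. DNA replication (52 genes), the G1/S transition (32) and mitosis (43) had 0 calls in edgeR, with 4, 3 and 2 genes at an unadjusted p under 0.05, and median interactions of -0.04, -0.13 and -0.12. A negative sign was seen in 29, 21 and 32 of them. Their smallest edgeR adjusted p were those of RRM2_020711 (-1.77 ± 0.52, 0.0611), RBL1 (0.8 ± 0.338, 0.258) and bub1bb (-2.16 ± 0.704, 0.104). RRM2_020711 averaged 4.05 and 4.82 CPM in palbociclib mutants and controls, against 8.6 and 2.96 CPM in DMSO mutants and controls. DESeq2 called 1 DNA replication gene negative and none of the others, and limma-voom called 0. CDK4, CDK6, RB1 and CCND1, the targets, substrate and partner cyclin of the pathway, had interactions of 0.23 ± 0.213, 0.53 ± 0.389, -0.26 ± 0.369 and -0.17 ± 0.167 (adjusted p = 0.718, 0.608, 0.834 and 0.735). PCNA, the sliding clamp of DNA replication, averaged 115 and 97.3 CPM in palbociclib mutants and controls, against 129 and 96.8 CPM in DMSO mutants and controls (-0.18 ± 0.149, adjusted p = 0.673). The palbociclib effect was called for 0 genes of these 3 lists in controls (5.71% of all genes tested) and 0 in mutants (0.54%). In DNA damage and p53 signalling, 0 of 46 genes were called by edgeR (1.99% of all genes tested), and 9 had an unadjusted p under 0.05. DESeq2 called 1 positive and 1 negative there, and limma-voom called 0. mdm2, the p53 ubiquitin ligase, averaged 32.4 and 20.9 CPM, against 46.7 and 20.3 CPM, in the same order (-0.56 ± 0.272, adjusted p = 0.355).

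The few interactions driven by a palbociclib group concerned low levels. VGLL4_094332, a cofactor of TEAD factors, had 4.33, 6.97, 4.27, 6.63 and 3.62 CPM in palbociclib mutants, against 1.72, 2.53, 2.01 and 2.16 CPM in palbociclib controls. In DMSO it had 3.66, 3.2, 1.08, 2.98 and 1.54 CPM in mutants, against 5.85, 2.19, 7.46 and 8.05 CPM in controls. The palbociclib groups did not overlap and the DMSO groups did, with an interaction of 2.50 ± 0.623 (adjusted p = 0.0215), lost without DMSO control replicates 3 or 4, DMSO mutant replicate 3 or palbociclib mutant replicate 2. The other 3 means of VGLL4_094332 spanned 1.21, close to the limit for naming a driver. The contrasts that passed both involved DMSO control (mutant effect in DMSO, adjusted p = 0.0442; palbociclib effect in controls, adjusted p = 0.047), and the mutant effect under palbociclib did not pass (adjusted p = 0.21). The other 2 genes driven by palbociclib control, si:dkey-122a22.2 (2.15, adjusted p = 0.0186) and si:dkey-100j22.4 (-1.87, adjusted p = 0.038), have clone names without a known role. lingo4b, a leucine-rich repeat membrane protein and the gene driven by palbociclib mutant, averaged 1.67 and 4.20 CPM in palbociclib mutants and controls, against 5.08 and 2.04 CPM in DMSO mutants and controls (-2.60 ± 0.724, adjusted p = 0.046). The other 3 means of lingo4b spanned 1.27, also close to the limit for naming a driver. Its DMSO mutant mean included replicate 5 at 11.2 CPM (others 2.44 to 4.36). No pairwise contrast of lingo4b passed, and its call was lost without any 1 of 13 libraries, all but DMSO control replicate 2, DMSO mutant replicates 1 and 3, palbociclib control replicate 2 and palbociclib mutant replicate 5. Low positive genes ticam1 and UNC93B1, an adaptor and a chaperone of Toll-like receptors, averaged 4.65 and 7.78 CPM in palbociclib mutants and 2.07 and 3.53 CPM in palbociclib controls, against 2.02 and 3.49 CPM in DMSO mutants and 5.17 and 12.7 CPM in DMSO controls. ticam1 was lost without any 1 of 3 libraries (palbociclib control replicates 1 and 4, palbociclib mutant replicate 5) and UNC93B1 without any 1 of 8 (DMSO control replicate 4, DMSO mutant replicates 2 to 5, palbociclib control replicates 1 and 5, palbociclib mutant replicate 1).

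The make-up of the libraries also differed by group. Secreted hepatocyte proteins took 5.06 to 7.07% of counts in palbociclib mutants and 4.71 to 8.21% in palbociclib controls, against 3.72 to 5.42% in DMSO mutants and 7.94 to 10.3% in DMSO controls. The 36 muscle markers, all detected in every group, took 5.76 to 6.81% in palbociclib mutants and 4.63 to 6.94% in palbociclib controls, against 4.90 to 6.99% in DMSO mutants and 3.16 to 5.36% in DMSO controls. DMSO control replicate 2 was the library at 5.36%, its group's others lying between 3.16 and 3.95%, and palbociclib control replicate 2, at 4.63%, was the lowest of its group. Skin markers had mean shares of 1.05 and 0.974% in palbociclib mutants and controls, against 1.0 and 0.676% in DMSO mutants and controls. Eye and lens, nervous system, and notochord and cartilage means were also lowest in DMSO controls (0.35, 0.184 and 0.333%). The endothelial mean was not (0.0363%, against 0.0333% in palbociclib controls). The part of these shares in the interactions was not tested. No muscle gene was called for the interaction by edgeR, DESeq2 or limma-voom, edgeR having called 1.99% of all genes tested. Of the 36, 15 had an unadjusted p under 0.05 in edgeR, and 22 rose with palbociclib in controls (1.38% of all genes tested rose there). With the log2 muscle share as a covariate, 189 interactions were called, 113 positive and 76 negative, and 123 of these were among the 340. Of the 43 called genes named above whose alternatives were computed, 25 stayed past the threshold in that fit and 18 did not. Those that stayed included PKLR (1.42, adjusted p = 1.52e-10), ces3 (2.55, 5.62e-15), ahsg1 (1.53, 2.38e-06), glud1a (1.1, 5.47e-06), F7_075827 (1.56, 4.63e-05) and ACOD1 (-3.78, 0.00381). Among those that stayed, fabp10a (0.84), F10 (0.73), MASP2 (1.07), SLC25A20 (0.60) and ACAA1 (0.67) had interactions smaller by over 1.5 times. The positive genes that lost the call were c3b.1 (1.00, adjusted p = 0.0721), MASP1 (0.73, 0.422), cyp2ad2 (1.56, 0.16), fmo5 (0.93, 0.0616), cbln9 (1.67, 0.0567), ESRRA (0.83, 0.125), NR5A2 (0.47, 0.521), PROX1 (0.64, 0.375), ACACB (0.53, 0.105), PNPLA3, FN1_006526 (1.08, 0.0836), VGLL4_094332 (1.59, 0.445), ticam1 (2.58, 0.0653) and UNC93B1 (2.00, 0.311). The negative genes that lost it were MMP9 (-1.83, adjusted p = 0.0631), PRDM1 (-1.79, 0.0578), EPX_019521 (-1.47, 0.109) and lingo4b (-2.39, 0.193).

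**Figure D5:**
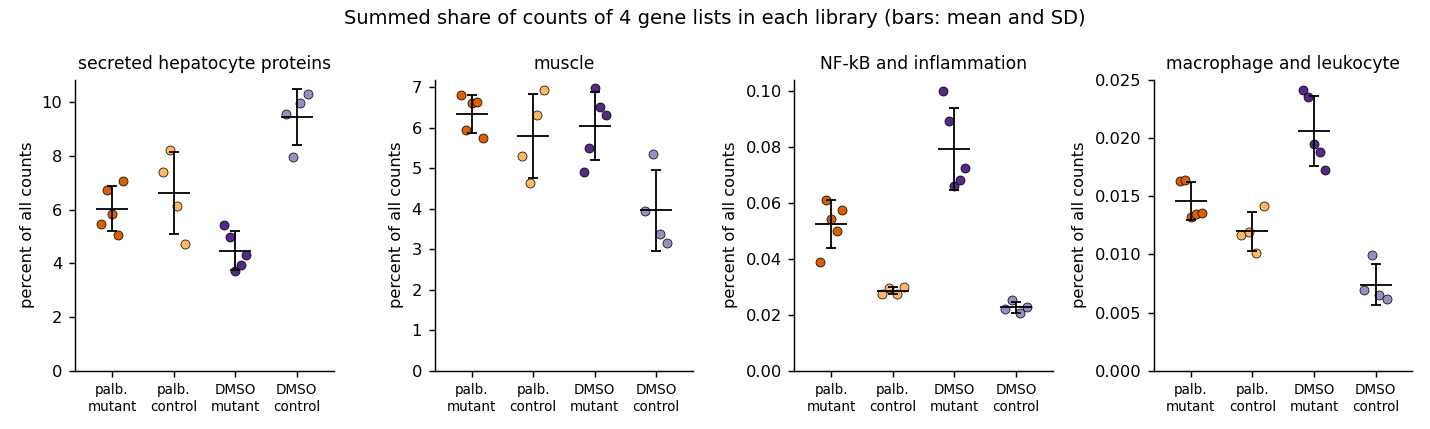
Summed share of all counts, in percent, of 4 gene lists in each library (points) with group mean and SD (bars). Secreted hepatocyte proteins reach 7.94 to 10.3% in DMSO controls, where muscle genes are at 3.16 to 5.36%, and the inflammatory and leukocyte lists are highest in DMSO mutants.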

How the data were processed

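RNA was measured in 18 pools of dissected larval livers. Ribosomal RNA was depleted and libraries were sequenced paired-end, per the labels' protocols. The authors deposited raw counts per gene, 1 value for each of 32105 Ensembl gene identifiers in every library. The submitters' processing notes name FastQC 0.11.5 and Trimmomatic 0.36. Aligner, counter, strand setting, build and annotation were not given in the sources used here. Counts of overlapping and near-identical genes, paralogs sharing a symbol included, are uncertain. Symbols were found for 26269 identifiers.

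Genes with low counts were removed with filterByExpr, leaving 17048 genes and 99.56% of counts. Group means were fitted to all 18 libraries with edgeR 4.0.16 (TMM scaling, robust quasi-likelihood test, R 4.3.3), and p-values were adjusted by Benjamini-Hochberg over all genes tested. The standard error is the log2 value divided by the square root of its F. The pipeline was tested on simulated data. DESeq2 1.42.0, limma-voom 3.58.1, other scalings and filters, a replicate block, a muscle covariate and leaving out each library were alternatives. Genes were named by rule: among called genes of at least 5 CPM in a group, the 12 most positive and 12 most negative and the 4 smallest adjusted p of each driving class, the 3 called genes with the smallest adjusted p in each list (or the single smallest where none was called), and a fixed set of pathway genes. Genes of the rule not needed for a comparison are not printed, some genes are not reported here, and hp, LEF1, pgm1, COL12A1_019601 and the 2 clone-named genes were chosen after their values were seen. The lists and comparisons were chosen with earlier results of these data known. No sequence was used.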

Additional observations from a re-analysis of the deposited data

Results flagged for a closer look

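The mutant effect differed between palbociclib and DMSO in 340 genes, by the test of the interaction itself. In 9 of 224 comparisons of 1 gene, or of the summed share of 1 gene list, in 1 group, a single library stood apart from its group by Dixon's criterion, which chance alone meets in about 1 group in 20. In palbociclib mutants, ANXA4 was at 169 CPM in replicate 4 (others 207 to 221) and FAT3_087709 at 32.6 CPM in replicate 5 (others 14.8 to 19.4). In palbociclib controls, F10 was at 142 CPM in replicate 4 (others 169 to 173) and MMP9 at 6.24 CPM in the same replicate (others 3.51 to 3.79). In DMSO mutants, PLAC8_043729 was at 72.0 CPM in replicate 3 (others 83.6 to 87.4) and lingo4b at 11.2 CPM in replicate 5 (others 2.44 to 4.36). In DMSO controls, fabp10a was at 3210 CPM in replicate 2 (others 5270 to 5420), mmp13a at 0.00 CPM in the same replicate (others 0.995 to 1.17) and cd83 at 0.498 CPM in replicate 3 (others 0.00).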

How the results depend on the processing

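The count of 340 interactions changed by less than 1.5 times under limma-voom, RLE scaling, scaling by library size alone and both other filters on low counts. The genes called were not all the same. Those among the 340 with the same sign were 247 of 349 with limma-voom and 208 of 391 with library size alone. With RLE scaling they were 329 of 332, without a filter 311 of 387, and with at least 1 CPM in 4 libraries 323 of 335. DESeq2 called 615 interactions, 336 mutant effects under palbociclib and 164 palbociclib effects in mutants, and its driving groups were palbociclib mutant for 5, palbociclib control for 9, DMSO mutant for 39, DMSO control for 247 and no single group for 315. limma-voom called 44 mutant effects under palbociclib, with palbociclib mutant driving 2 and palbociclib control 1, and isg15 at 0.21. Library size alone gave 300 mutant effects under palbociclib, 5708 in DMSO, 141 palbociclib effects in mutants and 1472 in controls, with 3, 6 and 40 genes driven by palbociclib mutant, palbociclib control and DMSO mutant, and the sign changed for CDK4 (-0.04) and FASN (-0.12). Scaling to the secreted hepatocyte genes gave 10363 interactions, 14971 mutant effects in DMSO, 465 palbociclib effects in mutants and 7311 in controls. Its driving groups were palbociclib mutant for 32, palbociclib control for 15, DMSO mutant for 955, DMSO control for 5546 and none for 3815. By its construction it moved the median of all genes to -1.27, and the sign changed for ACAA1 (-0.18), ACACB (-0.47), ACADM (-0.45), ANXA4 (-0.13), CDK4 (-1.04), CDK6 (-0.70), ESRRA (-0.16), F10 (-0.17), FASN (-1.15), MASP1 (-0.03), NR5A2 (-0.10), PNPLA3 (-0.37), PROX1 (-0.22), SLC25A20 (-0.30), fmo5 (-0.16) and gstr (-0.25). Without a filter palbociclib mutant drove 2 and palbociclib control 9 genes, and with at least 1 CPM in 4 libraries palbociclib mutant drove 2. The replicate block gave 134 interactions, 111 mutant effects under palbociclib, 59 palbociclib effects in mutants and 264 in controls, with 0, 1, 12, 60 and 61 genes driven by palbociclib mutant, palbociclib control, DMSO mutant, DMSO control and no single group. No pairing by number was seen in deviations from the group means. These correlated at -0.192 to 0.057 between same-numbered libraries and -0.177 to 0.165 between others, and 1 of 18 libraries correlated best with its own number. Such correlations cannot show whether same-numbered pools shared a clutch or a batch, so the lower counts of the replicate block are not set aside. The muscle covariate gave 189 interactions, 445 mutant effects under palbociclib, 1162 in DMSO, 366 palbociclib effects in mutants and 49 in controls. Its driving groups were palbociclib mutant for 2, DMSO mutant for 36, DMSO control for 52 and none for 95, with sign changes for CDK4 (-0.01), FASN (-0.19) and RB1 (0.09). A limit of 0.33 for naming a driver gave 0, 1, 6, 72 and 261 genes for palbociclib mutant, palbociclib control, DMSO mutant, DMSO control and no single group, and a limit of 0.67 left 87 with none. By the pairwise contrasts called, palbociclib mutant drove 0, palbociclib control 1 and DMSO control 258. Leaving out 1 library at a time gave 168 to 842 interactions, 96 to 318 mutant effects under palbociclib, 2094 to 3456 in DMSO, 39 to 116 palbociclib effects in mutants and 272 to 2019 in controls. Driving groups then ranged over 0 to 4 genes for palbociclib mutant, 0 to 9 for palbociclib control, 12 to 37 for DMSO mutant, 67 to 481 for DMSO control and 82 to 312 for none, and isg15 over -0.73 to 0.48. Apart from the settings given a construction above, the cause of each change was not tested. Depth was 2467926 to 5199301 counts a library, so genes under a few CPM had wide errors.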

Other observations

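The gene families below were picked after the values were seen and are described with no test, on the TMM scale. Over all genes tested 1.74% had a positive and 0.252% a negative interaction called. Of 20 aldehyde dehydrogenases, which oxidize aldehydes from lipid and amino acid breakdown, 7 had a positive and 0 a negative interaction called. By sign alone 18 of the 20 were positive. ALDH6A1, of valine breakdown, averaged 586 and 817 CPM in palbociclib mutants and controls, against 489 and 1240 CPM in DMSO mutants and controls (0.87 ± 0.205, edgeR adjusted p = 0.04). Of 6 genes of glycine and serine breakdown, 4 were called positive and all 6 had a positive sign. Among those called, SHMT1, a serine hydroxymethyltransferase, was at 104 and 131 CPM, against 93.1 and 243 CPM, in the same order (1.05 ± 0.219, adjusted p = 0.0116). All 3 copies of coagulation factor VII were positive, at 1.42, 1.81 and 1.32, each driven by the DMSO control. Of 16 genes of the insulin-like growth factor axis, 4 were called positive and 11 had a positive sign. igf2b, a growth factor, averaged 36.3 and 56.7 CPM in palbociclib mutants and controls, against 29.3 and 125 CPM in DMSO mutants and controls, and the growth hormone receptor ghrb averaged 13.6 and 16.0 CPM, against 9.46 and 31.2 CPM. The thyroid hormone deiodinase DIO1 averaged 34.8 and 54.4 CPM, against 21.9 and 125 CPM (1.86 ± 0.311, adjusted p = 0.0031).

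Among families with negative interactions, 2 of 8 AP-1 subunits were called, both driven by the DMSO mutant. JUNB_104773 averaged 38.6 and 28.9 CPM in palbociclib mutants and controls, against 77.5 and 25.6 CPM in DMSO mutants and controls (-1.19 ± 0.305, adjusted p = 0.0425), and FOSL2 averaged 18 and 16.0 CPM, against 36.6 and 13.9 CPM (-1.23 ± 0.307, adjusted p = 0.0223). Of 27 genes with a symbol starting with cldn, claudins and the claudin-domain genes CLDND1 and cldnd1a, 2 were called negative, cldn15la and cldnb. The cldnb means were 36.3 and 30.9 CPM, against 70.8 and 20.2 CPM. A positive sign was seen in 8 of the 27, with 0 called positive. Another group of 10 genes was picked by symbol around inhibitors of NF-kB signalling, and not every member need be an inhibitor. Of the 10, 3 were called negative and 0 positive, and 2 had a positive sign. TNIP1, which binds A20, averaged 117 and 102 CPM in palbociclib mutants and controls, against 157 and 86.1 CPM in DMSO mutants and controls (-0.67 ± 0.151, adjusted p = 0.01). IRAK3, also called, was near the floor in DMSO controls, at 0.0607 CPM, against 3.99 CPM in DMSO mutants. The rule on log2 means named the DMSO control as its driver.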
